A study of Mus musculus with 12 samples.

Results

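The change in gene expression with time in culture was followed in control C2C12 cells, by setting the 3 arrays labelled negative control siRNA at 96 h against the 3 arrays labelled negative control siRNA at 48 h. These 6 arrays are the control arm of a series of 12 arrays that also holds *Zbed6*-silenced cells at both times. C2C12 is an established mouse myoblast line. The cells were seeded in multiwell plates in growth medium with fetal bovine serum and reverse transfected with a scrambled siRNA pool by a cationic lipid, so the control cells at both times carried siRNA and lipid, and a culture without them was not analysed here. RNA was taken after 48 h or 96 h from separate wells in biological triplicate, so the same cells were not followed over time. A change to differentiation medium is not described for these cultures. Time since seeding, time since transfection, cell density and age of the medium moved together in this design and cannot be told apart. A probe entered the tests when its detection p-value was below 0.05 on 3 or more of the 12 arrays. That left 13095 probes and, with the brightest probe standing for each gene, 8858 of the 16593 genes on the array.

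Myoblasts are the dividing precursors of skeletal muscle. When they reach high density or lose growth factors they leave the cell cycle, switch on the myogenic factors MYOG and MEF2, fuse into multinucleated myotubes and build sarcomeres, the repeating units of thick myosin and thin actin filaments. ID and HEY proteins hold the myogenic factors in check. The myosin heavy chains follow each other in development, from embryonic and neonatal forms to the adult fast forms made by *Myh1* and *Myh4*.

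Between 12236 and 12558 of the 25697 probes were detected on the 6 control arrays (47.6% to 48.9%), and the median raw signal was 79.3 to 88.4. Arrays of the same time correlated at 0.99343 to 0.99602 and arrays of different times at 0.97644 to 0.98447, and the first principal component of the 6 arrays, with 70.1% of the variance, parted the times. All levels below are log2 signal after background correction and quantile normalization, and each difference is 96 h minus 48 h on that scale. With limma and a Benjamini-Hochberg adjusted p under 0.05, 4229 probes (32.3%) passed the threshold. Among genes, 2822 (31.9%) passed, of which 1511 (17.1%) rose and 1311 (14.8%) fell. These shares of all genes are the background against which each group of genes below is read. Most of the changes were small. The median difference of all genes was 0.016, with an interquartile range of -0.182 to 0.226. Only 808 of the 2822 genes that passed changed more than 1.5-fold, 187 more than 2-fold (118 up and 69 down), 23 more than 4-fold (20 up and 3 down) and 5 more than 8-fold. The p-values measure the spread between these cultures, which the sources call biological replicates. Of the genes that passed, 53.5% were higher at 96 h, and with median scaling in place of quantile normalization 68.7% were. The sizes of the differences depend on the scale. Of 261 named genes that passed, 136 gave a log2 difference more than 1.5 times smaller in the authors' processed values, 44 did with no background correction and 34 with offset 50. The array gives bulk RNA, in which fewer cells of a type and less RNA per cell cannot be told apart.

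**Figure D1:**
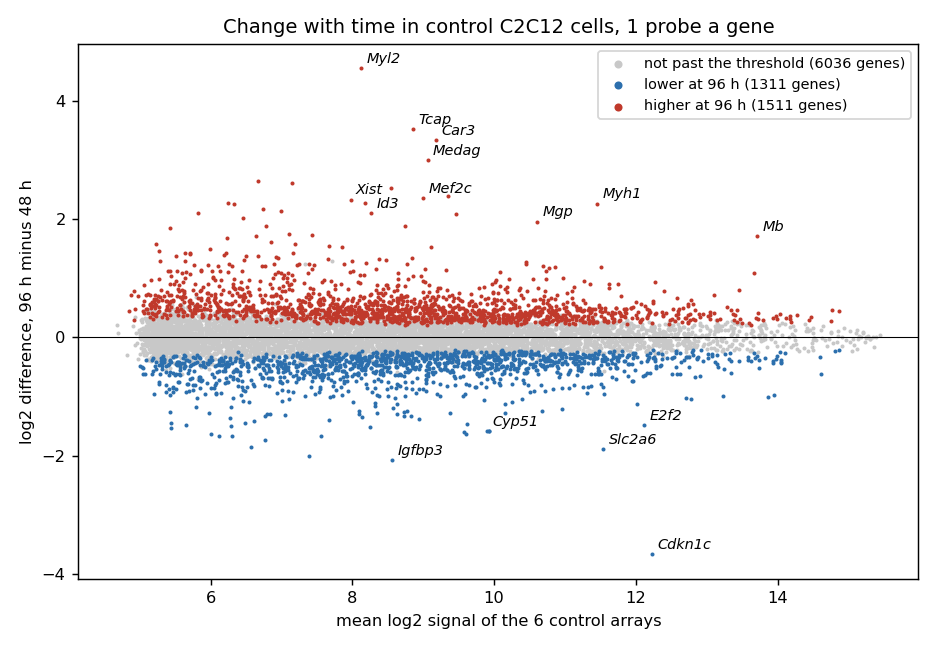
Each point is 1 of 8858 genes. The x axis is the mean log2 signal of the 6 control arrays and the y axis is the log2 difference between 96 h and 48 h, with genes that passed the threshold in red (1511, higher at 96 h) and blue (1311, lower). *Myl2* stands highest at 4.56 and *Cdkn1c* lowest at -3.67, while most genes lie near 0.

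The label myoblast was checked against marker genes. *Myod1*, *Des*, *Itga7*, *Ncam1* and *Vcam1*, 5 of the 7 myoblast markers on the array, were detected on all 6 arrays, while *Myf5* and *Pax7* were detected on none of them. All 7 myotube markers on the array were also detected on all 6 arrays, and at high levels, with a mean of 15.15 at 48 h and 15.12 at 96 h for *Acta1*, the skeletal alpha-actin, and 12.55 and 12.38 for *Myog*. The cells labelled myoblast thus held transcripts of differentiating muscle at both times. The markers chosen for adipocytes (5 on the array), leukocytes (3), endothelium (4) and neurons and glia (4) were detected on none of the 6 arrays. The epithelial genes *Krt8* and *Cdh1* were detected at low levels, with means of 5.70 and 5.54 at 48 h and 5.54 and 5.62 at 96 h. Of the 5 bone and cartilage markers only *Bglap*, which encodes osteocalcin, was detected. Its levels were 6.46, 5.67 and 5.81 at 48 h and 6.98, 7.83 and 7.26 at 96 h (difference 1.38, adjusted p = 0.00161).

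The largest rise was that of *Myl2*, the regulatory light chain of slow and cardiac myosin. Its levels were 5.99, 5.70 and 5.86 at 48 h and 9.95, 10.65 and 10.61 at 96 h, a 23.5-fold rise (log2 difference 4.56, SE 0.247, adjusted p = 1.17e-07). In the authors' processed values this rise was 4.21-fold. *Tcap* encodes telethonin, which caps titin at the Z-disc. It read 7.33, 6.99 and 6.98 at 48 h and 10.43, 10.78 and 10.66 at 96 h (11.5-fold, SE of the log2 difference 0.14, adjusted p = 6.85e-09). *Car3*, the carbonic anhydrase of slow muscle, read 6.99, 7.85 and 7.70 and then 11.18, 10.49 and 10.90 (10.1-fold, adjusted p = 1.17e-06). In each of these 3 genes every 96 h array lay above every 48 h array by more than the spread within either time. The 48 h and 96 h arrays did not overlap in 4269 of all 8858 genes (48.2%), so lack of overlap alone does not mark a gene. *Medag*, known for a role in the differentiation of fat cells, rose from 7.71, 7.36 and 7.62 to 10.52, 10.64 and 10.53 (8.02-fold, adjusted p = 6.94e-10). The next largest rises of genes detected on all 6 arrays were *Gzme* (6.16-fold), *Gpx3*, which encodes a secreted glutathione peroxidase (5.79-fold), *Fxyd6*, a modulator of the sodium pump (5.28-fold), *Mef2c* (5.12-fold), the X inactivation RNA *Xist* (5.03-fold), *Myh4* (4.85-fold), *Myh1* (4.80-fold) and *Pacsin1* (4.54-fold). *Xist* had a further probe with a difference of 0.40 that did not pass the threshold. In the authors' processed values most of these rises were smaller, at 4.13-fold for *Tcap*, 4.37-fold for *Car3*, 3.61-fold for *Medag*, 2.49-fold for *Gpx3*, 2.69-fold for *Mef2c*, 2.03-fold for *Myh4*, 1.95-fold for *Xist*, 1.66-fold for *Gzme* and 1.37-fold for *Pacsin1*, while *Myh1* was at 4.67-fold.

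The largest fall was that of *Cdkn1c*, which encodes the CDK inhibitor p57. Its levels were 14.24, 13.97 and 13.98 at 48 h and 10.26, 10.41 and 10.51 at 96 h, a 12.8-fold fall (log2 difference -3.67, SE 0.109, adjusted p = 3.47e-10). The raw signal of this probe dropped from 15200 to 16800 at 48 h to 1360 to 1500 at 96 h. *Igfbp3*, a carrier of insulin-like growth factors, read 9.73, 9.45 and 9.61 and then 7.65, 7.31 and 7.62 (4.21-fold lower, adjusted p = 2.2e-06). The adaptor gene *Dok3* fell 4.02-fold and *Slc2a6*, of the facilitative glucose transporter family, fell 3.71-fold (12.64, 12.31 and 12.52, then 10.46, 10.69 and 10.63). The remaining genes among the 12 largest falls dropped 3.0-fold to 3.6-fold. They were *Col17a1*, the phosphodiesterase gene *Pde2a*, the neurotrophic factor genes *Artn* and *Ptn*, the sodium, potassium and calcium exchanger gene *Slc24a3*, *Ky*, and the sterol synthesis genes *Cyp51* and *Nsdhl*. In the authors' processed values *Cdkn1c* (14.4-fold) and *Slc2a6* (3.63-fold) fell by about as much, while the falls were 2.12-fold for *Igfbp3*, 1.53-fold for *Dok3*, 1.47-fold for *Artn*, 1.29-fold for *Pde2a* and 1.27-fold for *Col17a1*. *Col17a1* was also at a log2 difference of -1.21 with no background correction and -1.22 with the mean over its probes (against -1.85), and *Xist* at 1.37 with the mean over its probes (against 2.33). The 12 largest rises and 12 largest falls kept their direction and passed the threshold at every setting tried, but 15 of the 24 log2 differences were more than 1.5 times smaller in the authors' processed values.

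Some genes crossed the limit of detection. Of all genes, 61 were detected on no 48 h array and on all 3 arrays at 96 h, of which 55 passed the threshold, and 38 went the other way, of which 31 passed. The genes were picked by their difference in detection between the same arrays, so their passing the test is no further support. Such a gene has only a bound on one side, so its fold is a lower limit, set against the lowest signal among detected probes of the dim arrays. *Casq1*, the calcium store protein of fast muscle, was at least 2.97-fold higher at 96 h (6.70, 6.85 and 7.08), and *Mylk3*, a myosin light chain kinase known from heart, at least 2.12-fold. *Klk1b26*, *Gvin1*, *Kng1* and *Rab38* were at least 2.16-fold, 2.09-fold, 2.08-fold and 1.97-fold higher. Genes lost to background at 96 h were *Bricd5* (at least 2.14-fold lower), the glutathione transferase gene *Gsta3* (at least 2.11-fold), the matrix gene *Dpt* (at least 1.88-fold), the urea transporter gene *Slc14a1* (at least 1.83-fold), the matrix gene *Tgfbi* (at least 1.69-fold) and *Setd2* (at least 1.57-fold).

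Among the myogenic regulators, *Mef2c* had the largest rise, and the bright *Myod1* and *Myog* did not pass the threshold. *Mef2c*, which encodes a MEF2 factor that drives muscle structural genes, read 7.96, 7.67 and 7.82 at 48 h and 10.07, 10.15 and 10.30 at 96 h (difference 2.36, SE 0.138, adjusted p = 2.37e-07). The other kept probes of *Mef2c* gave differences of 2.45 and 2.42. *Mef2a*, of the same family, went the other way, from 8.31, 8.38 and 8.32 to 7.25, 7.33 and 7.52 (difference -0.97, adjusted p = 0.000101). *Myod1* (11.82, 11.71 and 11.62, then 11.85, 11.69 and 11.78) and *Myog* (12.64, 12.51 and 12.52, then 12.20, 12.46 and 12.48) gave differences of 0.05 (SE 0.0959, adjusted p = 0.708) and -0.17 (SE 0.0946, adjusted p = 0.177). The times overlapped for *Myod1*, while for *Myog* the highest 96 h value lay just under the lowest 48 h value. *Myf6*, the factor of late differentiation, was detected on no 48 h array and on all 3 at 96 h (5.52, 5.61 and 5.80) and was at least 1.27-fold higher (adjusted p = 0.0035). That p depends on 48 h values below the detection limit, and the difference of *Myf6* in the authors' processed values was 0.12. Of the 15 regulators measured, 3 rose (20%) and 5 fell (33.3%), with a median of -0.174. The falls beside *Mef2a* were those of *Tead4*, which encodes a DNA-binding partner of YAP (-0.88), the RNA-binding protein gene *Rbm24* (-0.85), *Tcf12*, whose E-protein pairs with MYOD (-0.58), and the methyltransferase gene *Smyd1* (-0.53). *Smyd1* lost its call at 5 settings, and the third rise, that of *Eya4* (0.25), lost it at 10. The values of *Mef2d* (-0.46), *Pitx3* (-0.29), *Smarcd3* (-0.12), *Srf* (0.07) and *Six4* (0.09) did not pass. *Myf5*, *Mef2b*, *Eya1*, *Pax3*, *Pax7*, *Tead1*, *Lbx1* and *Hdac9* were on the array and below the filter on dim probes.

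The window around the start of *Mef2c* is shown because this gene had the smallest p of the regulators. It is the first of 3 RefSeq windows of the gene, at chr13:83503784-83504083 on the plus strand of GRCm38.p6, from 250 bases before to 50 bases after the start. Capitals mark the box CCAAT, read on the reverse strand, 51 and 37 bases before the start.
Mef2c: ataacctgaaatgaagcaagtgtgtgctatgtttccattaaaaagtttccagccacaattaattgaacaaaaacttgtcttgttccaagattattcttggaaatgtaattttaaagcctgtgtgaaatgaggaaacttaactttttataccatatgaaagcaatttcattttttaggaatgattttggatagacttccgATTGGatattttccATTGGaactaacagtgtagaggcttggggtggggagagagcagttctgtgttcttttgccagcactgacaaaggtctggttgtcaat

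Inhibitors of the myogenic factors rose where they passed the threshold. Of 17 measured, 8 rose (47.1%, against 17.1% of all genes) and 0 fell, with a median of 0.209. *Id3* had the largest difference. It read 7.15, 7.38 and 7.11 at 48 h and 9.49, 9.16 and 9.32 at 96 h (difference 2.11, SE 0.138, adjusted p = 4.98e-07). *Id2* read 7.84, 8.18 and 8.41 and then 9.58, 9.23 and 9.36 (difference 1.25, adjusted p = 5.65e-05), and *Id1* read 9.57, 9.35 and 9.37 and then 10.48, 10.22 and 10.14 (difference 0.85, adjusted p = 0.000495). ID proteins bind E-proteins and keep them from pairing with MYOD. All 3 measured members of the family lay higher at 96 h on every array, where 48.2% of all genes lay apart in either direction. The Notch and BMP responsive repressor *Hey1* rose by 0.99 (10.25, 9.92 and 10.00, then 10.92, 11.10 and 11.12), and *Heyl* rose by 0.46. Smaller rises were those of *Sim2* (0.38), *Twist2* (0.39) and *Zeb1* (0.23), each of which lost its call when some single arrays were left out, so that the count fell to 5 without the third 48 h array and without the second 96 h array. *Hes1* (-0.13), *Hes6* (-0.18), *Msc* (-0.22), *Bhlhe40* (-0.11), *Bhlhe41* (-0.38), *Snai1* (-0.04), *Twist1* (-0.14) and *Zeb2* (-0.08) did not pass, and the brightest probe of *Ybx3* was at 0.21 while its dimmer probes fell by 0.72 and 0.61. *Bhlhe41* and *Twist1* were not detected on every array. The median of the list turned to -0.036 with the mean over the probes of each gene and to just under 0 with no filter on dim probes.

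Myosin chains, troponins and tropomyosins rose where they passed the threshold, whether dim or bright at 48 h, while other genes of the sarcomere, given below, went both ways. Of 9 myosin chains measured, 6 rose (66.7%) and 0 fell, with a median of 1.09. *Myh1*, the fast 2X heavy chain, read 10.50, 10.29 and 10.18 at 48 h and 12.55, 12.69 and 12.52 at 96 h (difference 2.26, SE 0.117, adjusted p = 1.11e-07). *Myh4*, the fast 2B chain, read 7.40, 6.77 and 6.96 and then 9.20, 9.38 and 9.37 (difference 2.28, adjusted p = 3.5e-06). The neonatal chain *Myh8* was brighter at both times and rose less, from 13.41, 12.93 and 13.04 to 14.15, 14.24 and 14.25 (difference 1.09, adjusted p = 0.000282). *Myh6*, the alpha chain of heart, rose by 1.36, and *Myl4*, the embryonic light chain, by 0.46, while *Myh7* (0.57), *Myl1* (-0.16) and *Mylpf* (0.01) did not pass. The sarcomeric myosin genes are close copies of each other, and whether a probe also binds a neighbour was not tested. Of 10 troponins and tropomyosins, 4 rose (40%) and 0 fell, namely *Tpm1* (0.66), *Tnni1* (0.49), *Tnnt3* (0.40) and *Tnnt1* (0.33). The last 2 lost their calls without the second or without the third 96 h array, which left 2 rises in that list.

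The windows at the starts of *Myh1* and *Myl2* are shown because these genes had the smallest p among sarcomere members with a window. *Myh1* lies at chr11:67199852-67200151 on the plus strand, with the box CCAAT in capitals 179 bases before the start. *Myl2* is the first of 2 windows, at chr5:122092474-122092773 on the plus strand, with the E-box CAGCTG, a sequence that MYOD is known to bind, in capitals 34 bases after the start.
Myh1: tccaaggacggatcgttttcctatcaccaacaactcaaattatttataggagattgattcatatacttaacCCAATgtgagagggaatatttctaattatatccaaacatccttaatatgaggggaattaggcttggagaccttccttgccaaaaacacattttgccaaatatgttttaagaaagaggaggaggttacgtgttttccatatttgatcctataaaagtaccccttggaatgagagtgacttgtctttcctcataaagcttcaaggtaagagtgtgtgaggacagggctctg
Myl2: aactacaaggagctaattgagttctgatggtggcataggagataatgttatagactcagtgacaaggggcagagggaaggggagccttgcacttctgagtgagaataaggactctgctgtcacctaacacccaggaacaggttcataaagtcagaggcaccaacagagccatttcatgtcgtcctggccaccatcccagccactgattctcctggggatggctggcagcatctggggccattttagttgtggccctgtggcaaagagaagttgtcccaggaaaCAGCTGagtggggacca

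CAGCTG, searched on both strands, was in 31.8% of the 44 sarcomere members that have a window, in 15% of the 7223 genes tested that have one and in 16.1% of all 27025 promoters. The MEF2 consensus was in 11.4%, 0.485% and 0.566% of them. CCAAT, marked in the windows of *Mef2c* and *Myh1*, was in 31.8%, 39% and 37.9% of them, and in 33.3% of the 12 myogenic regulators that have a window. These shares are over all measured members, whether or not they changed. Among genes that rose CAGCTG was in 17.6% and among genes that fell in 16.5%. A match is a description of the letters in these windows and not a binding site.

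The brightest muscle genes differed little between the times on this scale. *Acta1* read 15.13, 15.24 and 15.08 at 48 h and 15.08, 15.11 and 15.17 at 96 h, and the highest level of any gene was 15.47. *Tnnc1*, the slow troponin C, had the same values at both times (15.34, 15.33 and 15.36), while its raw signal was 38000 to 39000 at 48 h and 41200 to 42500 at 96 h. Quantile normalization gives each array the same set of values by rank, and this probe ranked between the fourth and the sixth brightest on every control array, so a difference among such probes can be smaller on the normalized than on the raw scale. *Actc1*, the cardiac alpha-actin that embryonic muscle also makes, did fall, from 14.99, 14.92 and 14.87 to 14.27, 14.30 and 14.32 (difference -0.63, adjusted p = 8.92e-05).

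Genes of the Z-disc, M-band, titin and actin went both ways, with 8 of 34 higher (23.5%), 9 lower (26.5%) and a median of 0.0549. Beside *Tcap*, the rises were led by *Myoz2*, a calcineurin-binding protein of the Z-disc (9.91, 9.68 and 9.89, then 10.87, 11.26 and 11.07, difference 1.24, adjusted p = 5.41e-05), the small heat shock protein gene *Hspb7* (1.23) and *Mybpc1*, which encodes slow myosin-binding protein C (0.84). *Myot*, which encodes myotilin, appeared from background and was at least 1.58-fold higher. The falls were led by *Actc1* and by *Tmod1*, which caps the pointed end of actin filaments (11.02, 10.93 and 10.93, then 9.81, 10.07 and 10.25, difference -0.92). The count of rises was 13 with an intensity trend in the variance. In excitation and calcium handling, 6 of 27 rose and 5 fell. *Casq1* rose as above, the ryanodine receptor gene *Ryr3* by 0.52 and the calcium sensor gene *Stim1* by 0.60, while *Srl*, which encodes the calcium-binding protein sarcalumenin, fell by 1.12 (10.69, 10.82 and 10.64, then 9.43, 9.52 and 9.82). *Cacng1*, a subunit of the muscle calcium channel, fell by 0.39 and *Jph1*, which ties the membranes of the triad, by 0.41. The brightest probe of *Asph* rose by 0.46, but this gene had probes that passed in both directions. This list held 3 rises without the second 96 h array, 3 falls without the first 48 h, the first 96 h or the second 96 h array, and 2 falls with median scaling. In the dystrophin complex 1 of 15 rose and 2 fell, the syntrophin gene *Sntb1* (-1.03, detected on 1 array at 96 h) and the dystroglycan gene *Dag1* (-0.53), and *Lamb1*, the rise (0.30), lost its call without the first or the third 48 h array and without the first or the third 96 h array.

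**Figure D2:**
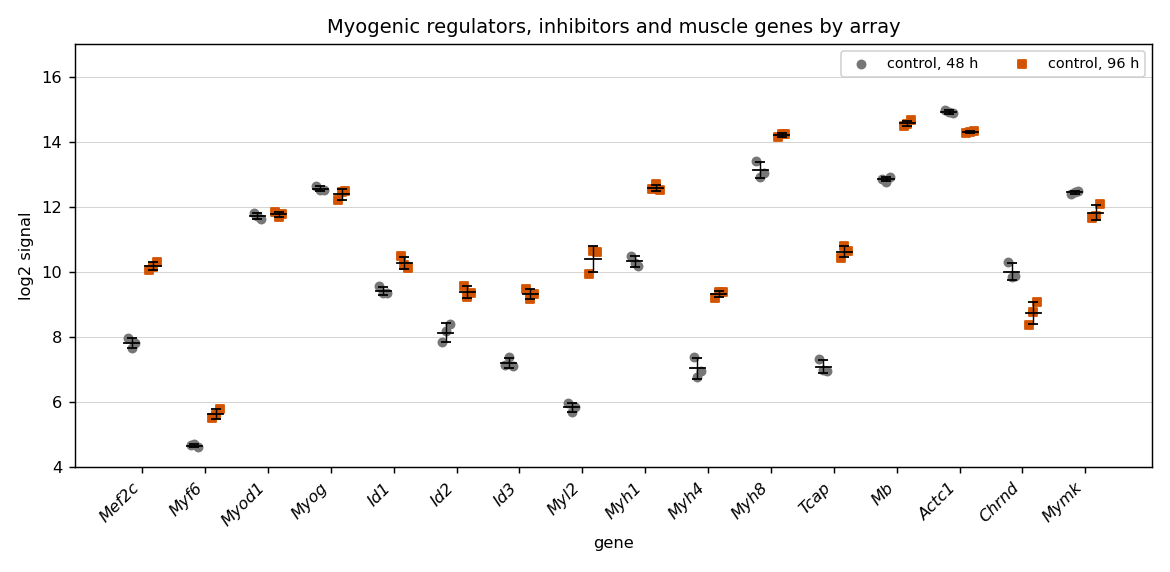
Log2 signal of 16 muscle genes on each control array, with circles for 48 h and squares for 96 h, and the mean and SD of the 3 arrays as a bar. *Mef2c*, *Id3*, *Myl2*, *Myh1* and *Tcap* do not overlap between the times, while *Myod1* does. Of all genes 48.2% do not overlap.

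Genes of the synaptic receptor and of cell fusion fell more often than they rose. Of 12 genes of the acetylcholine receptor and the junction, 0 rose and 6 fell (50%, against 14.8% of all genes), with a median of -0.193. *Chrnd*, the delta subunit of the receptor, read 10.30, 9.85 and 9.88 and then 8.38, 8.77 and 9.07 (difference -1.27, SE 0.199, adjusted p = 0.000522). *Chrng*, the fetal gamma subunit, fell by 0.32, *Chrnb1* by 0.29, *Ncam1* by 0.42, and the genes of the kinase that organizes the junction and of its adaptor, *Musk* and *Dok7*, by 0.49 and 0.57. With median scaling 3 of these 6 passed, and *Chrng*, *Chrnb1* and *Ncam1* did not. Among 27 fusion and adhesion genes, 2 rose and 7 fell (25.9%), with a median of -0.162. *Mymk*, which encodes the fusion protein myomaker, read 12.40, 12.46 and 12.50 and then 11.65, 11.72 and 12.07 (difference -0.63, adjusted p = 0.00295). N-cadherin, from *Cdh2*, fell by 0.78 (9.05, 9.03 and 8.99, then 8.20, 8.15 and 8.37), as did *Popdc2* (-1.13), *Bves* (-0.52) and the netrin receptor gene *Neo1* (-0.50). *Capn3*, the muscle calpain, rose by 1.05. With an intensity trend in the variance 12 of these genes fell.

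Muscle energy metabolism rose more often than it fell, with 9 of 26 genes higher (34.6%), 2 lower and a median of 0.227. *Mb*, which encodes the oxygen store myoglobin, read 12.86, 12.77 and 12.91 at 48 h and 14.49, 14.55 and 14.65 at 96 h (difference 1.72, SE 0.101, adjusted p = 2.37e-07). *Pdk4*, which encodes a brake on pyruvate dehydrogenase, rose by 1.73 (6.42, 6.50 and 6.77, then 8.33, 8.37 and 8.19). *Cox7a1*, the muscle form of a cytochrome oxidase subunit, rose by 1.29, the muscle AMP deaminase gene *Ampd1* by 1.25 and the mitochondrial creatine kinase gene *Ckmt2* by 1.24. *Ckm*, the cytosolic muscle creatine kinase, went the other way, from 11.94, 11.27 and 11.48 to 10.17, 10.44 and 10.46 (difference -1.21, adjusted p = 0.000109). The other fall, that of the glycogen synthase gene *Gys1* (-0.56), did not pass without the first 48 h, the first 96 h or the second 96 h array. Of 68 genes of oxidative phosphorylation, 20 rose (29.4%) and 3 fell (5 in the authors' processed values), by small amounts, with a median of 0.141. *Ndufb7* (0.55), *Ndufb3* (0.45) and *Ndufa2* (0.40) of complex I, *Uqcrb* of complex III (0.36) and *Atp5l* of the ATP synthase (0.43) were among the rises. That count was 13 without the second 96 h array and 15 with the replicate number as a block. In the TCA cycle and fatty acid oxidation 4 of 35 rose and 5 fell, counts that single arrays moved. The rises were 1 without the first 48 h array, 7 without the second and 2 without the third 96 h array, and the falls were 3 without the second or the third 48 h array and without the first or second 96 h array. With an intensity trend in the variance 8 of them rose, and with median scaling 2 fell. In glycolysis and hypoxia 3 of 27 rose and 6 fell, among them the glucose transporter gene *Slc2a1* (11.79, 11.75 and 11.80, then 10.95, 10.72 and 10.87, difference -0.93).

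Of 49 mitosis genes, 26 rose (53.1%, against 17.1% of all genes) and 0 fell, with a median of 0.372. *Lmnb1*, which encodes the nuclear lamin B1, read 9.83, 9.61 and 9.97 at 48 h and 11.42, 11.03 and 10.81 at 96 h (difference 1.28, SE 0.142, adjusted p = 3.86e-05). *Birc5*, which encodes the chromosomal passenger survivin, read 10.23, 10.61 and 10.74 and then 11.24, 11.32 and 11.15 (difference 0.71, adjusted p = 0.00206). The passenger gene *Incenp* rose by 0.68, the kinetochore genes *Ndc80* and *Knstrn* by 0.62 and 0.61, the kinesin gene *Kif15* by 0.57 and *Cep55*, needed for the last step of division, by 0.68. Of 53 genes of DNA replication and S phase, 14 rose (26.4%) and 0 fell, with a median of 0.186 (0.183 with genes at the detection limit set to their bound). *Dbf4*, which encodes the activator of the origin-firing kinase, read 8.50, 8.82 and 8.74 and then 9.69, 9.42 and 9.28 (difference 0.77, adjusted p = 0.00163), thymidine kinase, *Tk1*, rose by 0.65, *Tipin* by 0.62, *Rfc4* by 0.54, *Orc6* by 0.46 and *Rpa3* by 0.45. These counts depended in part on the first array of each time. Among the mitosis genes that rose the first array was the lowest of the 48 h arrays in 23 of 26 and the highest of the 96 h arrays in 22, and among the S phase genes in 13 and 13 of 14. The same was not counted over all genes that rose. Without the first 48 h array 17 mitosis and 7 S phase genes rose, and without the first 96 h array 16 and 6 did. Rises among all genes came down as well, from 1511 to 1157 and 1138. The minichromosome maintenance genes, which license origins, gave no value past the threshold (*Mcm2* -0.15, *Mcm3* -0.05, *Mcm4* 0.20, *Mcm5* 0.01, *Mcm6* 0.31 and *Mcm7* -0.37).

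The regulators of the cycle went both ways. Among 20 cyclins, CDKs and E2F factors, 5 rose and 5 fell. *E2f2* fell most, from 12.90, 12.90 and 12.77 to 11.36, 11.25 and 11.52 (difference -1.48, SE 0.1, adjusted p = 7.4e-07), *Myc* fell by 1.08 (7.27, 6.98 and 6.72, then 5.74, 6.04 and 5.95) and *Ccnd2*, which encodes cyclin D2, by 0.99 (7.99, 7.54 and 7.97, then 7.12, 6.64 and 6.77). *Skp2* fell by 0.43 and *E2f3* by 0.35, and both lost their calls with median scaling, which left 3 falls. The 5 rises, with *Cdk1* (0.52) and *Ccna2*, which encodes cyclin A2 (0.58, detected on 2 arrays at 48 h), came down to 0 to 3 when any 1 control array was left out. Among 20 CDK inhibitors, pocket proteins and quiescence genes, 6 rose (3 with the mean over the probes of a gene) and 7 fell. Beside *Cdkn1c*, the growth arrest genes *Gadd45g* (14.49, 14.35 and 14.26, then 13.31, 13.41 and 13.34, difference -1.01) and *Gadd45b* (-0.83) fell, and so did the antiproliferative *Tob1* (-0.56). *Cdkn2d*, which encodes p19 of the INK4 family, rose by 0.69, *Gas2* by 0.86 and *Ccng2* by 0.46, while *Cdkn1a*, which encodes p21, was at -0.17 and did not pass.

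The windows of *Birc5* and *Dbf4* are shown as those with the smallest p among the members of mitosis and S phase whose window could be shown. *Birc5* lies at chr11:117848987-117849286 on the plus strand, with CAGCTG in capitals 159 bases before the start. None of the other motifs searched matched in this window. CAGCTG was in 14.3% of the mitosis members that have a window and in 15% of all genes tested. *Dbf4* lies at chr5:8422667-8422966 on the minus strand, with the cell cycle homology region, TTTGAA or TTCGAA, in capitals on the reverse strand 3 bases before the start.
Birc5: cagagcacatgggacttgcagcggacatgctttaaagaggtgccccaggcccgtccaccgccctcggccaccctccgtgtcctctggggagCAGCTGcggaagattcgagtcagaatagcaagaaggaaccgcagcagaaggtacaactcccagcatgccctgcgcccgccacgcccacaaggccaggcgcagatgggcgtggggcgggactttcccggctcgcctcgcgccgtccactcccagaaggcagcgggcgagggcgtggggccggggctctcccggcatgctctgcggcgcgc
Dbf4: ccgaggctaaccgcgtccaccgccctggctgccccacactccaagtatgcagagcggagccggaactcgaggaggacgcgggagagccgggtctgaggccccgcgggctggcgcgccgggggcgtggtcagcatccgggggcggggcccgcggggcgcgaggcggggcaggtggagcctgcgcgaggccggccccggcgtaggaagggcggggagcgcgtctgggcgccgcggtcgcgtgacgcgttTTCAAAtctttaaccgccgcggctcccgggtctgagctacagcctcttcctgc

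The cell cycle homology region, bound by complexes that restrain genes of G2 and mitosis until they are needed, was in 71.4% of the 42 mitosis members that have a window, 20.5% of the 44 S phase members, 13.8% of all genes tested and 19.4% of all promoters. CCAAT was in 64.3%, 56.8%, 39% and 37.9%. The E2F consensus was in 7.14%, 22.7%, 2.88% and 1.63%. Both strands were searched, none of these motifs contains another, and the cell cycle homology region was in 14.7% of all genes that rose and 12.4% of those that fell.

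Sterol and fatty acid synthesis fell almost throughout. Of 29 genes measured, 25 fell (86.2%, against 14.8% of all genes) and 0 rose, with a median of -0.58, and 22 fell with median scaling. *Cyp51*, the lanosterol demethylase, read 10.48, 10.76 and 10.86 at 48 h and 9.09, 9.13 and 9.12 at 96 h (difference -1.59, SE 0.13, adjusted p = 3.5e-06). *Hsd17b7*, a later step of the same path, read 10.77, 10.82 and 10.79 and then 9.73, 9.62 and 9.74 (difference -1.09, adjusted p = 8.92e-07), and *Mvd*, of the mevalonate path, read 9.53, 9.23 and 9.41 and then 7.84, 8.25 and 8.11 (difference -1.33, adjusted p = 8.35e-06). In each of the 3 genes the times were apart on every array, as they were in 48.2% of all genes. *Nsdhl* (-1.59), *Tm7sf2* (-1.35), *Msmo1* (-1.19) and *Sqle* (-0.96) fell as well. SREBP2, the transcription factor that drives this pathway when cell cholesterol is low, is encoded by *Srebf2*, which fell by 0.35, and *Srebf1* fell by 0.58. The 4 genes that did not pass were *Me1* (-0.21), *Sc5d* (-0.21), *Fasn* (-0.33) and *Ebp* (0.06).

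Genes of the integrated stress response, which ATF4 drives when amino acids are short, fell as well. Of 39, 25 fell (64.1%) and 2 rose (1 without the third 48 h array), with a median of -0.45 (-0.41 with genes at the detection limit set to their bound), and 20 fell with median scaling. *Trib3* read 7.67, 7.24 and 7.54 and then 5.97, 6.54 and 6.05 (difference -1.29, adjusted p = 0.000146), and the glycine transporter gene *Slc6a9* read 11.47, 11.24 and 11.17 and then 9.91, 10.06 and 10.16 (difference -1.25, adjusted p = 3.18e-05). *Stc2* (-0.94), *Cth* (-0.86, detected on 2 arrays at 96 h), *Sesn2* (-0.76), the alanyl tRNA synthetase gene *Aars* (-0.67), the amino acid transporter gene *Slc7a5* (-0.62) and *Atf4* itself (-0.59) fell too. *Ddit3*, which encodes CHOP, was at 0.00. Of 22 endoplasmic reticulum chaperones and unfolded protein response genes, 6 fell and 0 rose, with *Syvn1* (-0.49), *Edem2* (-0.44), *Herpud1* (-0.38) and *Xbp1* (-0.34) among them, while the chaperone gene *Hspa5* was at 0.13 and did not pass.

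Ribosome biogenesis and ribosomal proteins did not move together. Of 47 nucleolar and ribosome biogenesis genes, 22 fell (46.8%) and 2 rose (1 or 0 without the first or second array of either time), with a median of -0.212, led by *Heatr1* (11.51, 11.61 and 11.35, then 10.84, 10.79 and 10.91, difference -0.64), *Rrp9* (-0.65) and *Grwd1* (-0.55). This count rested on the scaling, with 7 falls after median scaling, and it was 13 without the third 48 h array and 14 without the third 96 h array. Of 56 ribosomal proteins, 15 rose (26.8%) and 1 fell, with a median of 0.154, and 25 rose in the authors' processed values. The rises were small, such as 0.49 for *Rps3a1* and 0.38 for *Rps27*, and many ribosomal protein genes have near-identical pseudogenes to which a probe may also bind. In the proteasome list 3 of 32 rose and 3 fell, with 7 falls in the authors' processed values, 1 rise left without the second 48 h, first 96 h or second 96 h array and 1 fall without the first 48 h or second 96 h array.

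Immediate early genes, which respond within minutes to growth factors, fell in 10 of 21 cases (47.6%) and rose in 3, with a median of -0.349. *Fos* read 9.03, 8.99 and 8.92 at 48 h and 7.58, 7.90 and 7.64 at 96 h (difference -1.28, SE 0.136, adjusted p = 2.85e-05). *Egr2* fell by 0.86, *Egr1* by 0.61, *Dusp6*, a phosphatase gene switched on by ERK, by 0.62, *Dusp4* by 0.61 and *Zfp36* by 0.40. Of 18 genes of the IGF axis, which holds ligands, receptors, binding proteins and a protease, 5 rose (27.8%, 3 genes without the third 96 h array) and 4 fell (22.2%). Beside the fall of *Igfbp3*, *Igfbp7* rose by 0.80 (13.11, 13.01 and 13.06, then 13.85, 13.84 and 13.88), the protease gene *Htra1* by 0.63 and *Igf1* by 0.79 (8.07, 8.35 and 8.17, then 9.11, 9.01 and 8.84), and the receptor genes *Igf1r* and *Igf2r* fell by 0.49 and 0.53. *Igf2* itself, the best known target of ZBED6, read 14.45, 14.15 and 14.24 and then 14.15, 14.10 and 14.19 (difference -0.13, SE 0.0955, adjusted p = 0.318). *Zc3h11a*, the host gene of *Zbed6*, was at -0.03 (adjusted p = 0.856). No probe was matched to the symbols *Zbed6* and *H19*, so no value is given for them here, though the paper lists an array value for *H19*. Of 24 p53 target genes 6 rose and 7 fell.

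**Figure D3:**
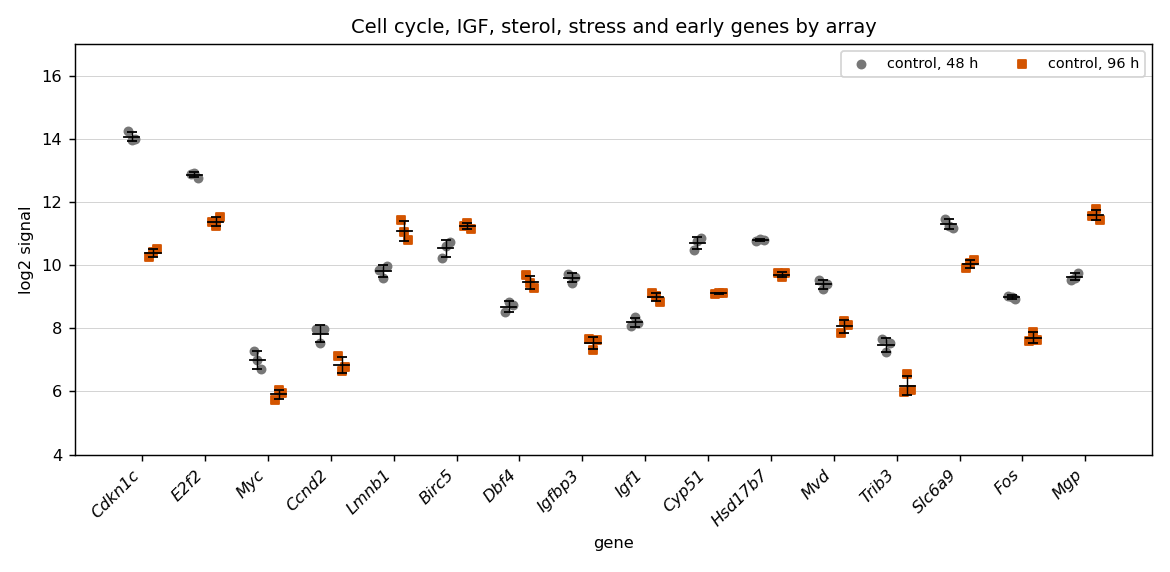
Log2 signal of 16 genes of the cell cycle, IGF axis, sterol synthesis, stress response, early response and matrix on each control array, drawn as in the plot of muscle genes. *Cdkn1c* drops from about 14 to about 10.4, and *Lmnb1*, *Birc5*, *Dbf4*, *Igf1* and *Mgp* are the genes drawn that lie higher at 96 h.

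Matrix glycoproteins rose more often than they fell, while collagens did not. Of 38 matrix glycoproteins and crosslinkers 12 rose (31.6%) and 5 fell, with a median of 0.0903. *Mgp*, which encodes the inhibitor of calcification matrix Gla protein, read 9.54, 9.59 and 9.76 and then 11.56, 11.77 and 11.44 (difference 1.96, SE 0.102, adjusted p = 1.11e-07). *Fbln2* rose by 0.96 (9.52, 9.49 and 9.64, then 10.59, 10.43 and 10.53), *Prelp* by 0.80, *Ltbp1*, which stores latent TGF-beta, by 0.64 and the basement membrane gene *Nid2* by 0.61, and *Mfap5* was at least 1.61-fold higher. *Dcn*, which encodes the proteoglycan decorin, fell by 0.79. The matrix falls were 3 without the first 48 h or the first 96 h array. Of 17 collagens 4 rose (23.5%) and 5 fell (29.4%), with a median of -0.212. The basement membrane chains *Col4a1* (11.76, 11.81 and 11.67, then 10.98, 10.91 and 10.83, difference -0.84) and *Col4a2* (-0.72), with *Col18a1* (-1.04) and *Col15a1* (-0.85, detected on 1 array at 96 h), fell, and so did the fibrillar chain *Col5a1* (-0.28). The fibrillar chains *Col1a1* (0.68), *Col1a2* (0.34) and *Col5a2* (0.61) and the fibril-associated *Col14a1* (0.64, detected on 1 array at 48 h) rose. *Col17a1*, among the 12 largest falls, was not on this list. Among 21 metalloproteinases and inhibitors 6 rose and 4 fell, with *Timp2* (0.72), *Plau* (0.69) and *Mmp23* (0.72) higher and *Adamts4* (-0.84), *Adamts7* (-0.85) and *Adamts1* (-0.82) lower.

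Signalling genes of the TGF-beta family rose in 11 of 34 cases (32.4%) and fell in 4. *Grem1*, which encodes an antagonist of BMPs, read 5.72, 5.71 and 5.65 and then 6.99, 6.94 and 6.79 (difference 1.21, adjusted p = 5e-06). *Fst*, which encodes follistatin, a binder of activin and myostatin, read 9.17, 8.58 and 8.50 and then 9.73, 9.83 and 10.11 (difference 1.14, adjusted p = 0.000546), *Fstl1* rose by 1.01, *Skil* by 0.65 and *Tgfb3* by 0.63, while the BMP co-receptor gene *Rgma* fell by 0.81, and the falls were 2 without the first 48 h or the first 96 h array. Chemokines, cytokines and acute phase genes rose in 11 of 27 cases (40.7%). *Osmr*, the oncostatin M receptor gene, read 7.41, 7.51 and 7.43 and then 8.68, 8.59 and 8.43 (difference 1.12, adjusted p = 6.85e-06), *Cxcl12* rose by 1.16, the ceruloplasmin gene *Cp* by 1.05, *Csf1* by 0.72, and *Lbp*, detected on 1 array at 48 h and on all 3 at 96 h, by 2.28. Interferon response genes rose in 7 of 28 cases (25%) and fell in 3 (5 with no filter on dim probes), with *Oasl2* at 1.01, *Ifitm3* at 0.56 and *Igtp* at -0.68. In the list of muscle atrophy ligases, FoxO targets and autophagy 12 of 27 rose (44.4%) and 6 fell. The autophagy genes *Gabarap* (0.51), *Gabarapl2* (0.57) and *Ulk1* (0.56) rose, while the receptor gene *Sqstm1* fell by 0.66 and the ubiquitin ligases of atrophy, *Trim63* (-0.24) and *Fbxo32* (0.00), did not pass.

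In the Notch pathway 3 of 14 rose and 3 fell, with the ligand gene *Dll1* (-0.77) and the receptor gene *Notch1* (-0.62) lower and *Hey1* (0.99) and the receptor gene *Notch3* (0.46) higher. In the Wnt list 4 of 22 rose and 2 fell (1 when any array but the third at 96 h was left out), with the antagonist gene *Dkk3* at 1.24. Of 12 YAP targets 3 rose and 2 fell, and *Ccn2* (0.31) and *Ankrd1* (-0.27) lost their calls at 7 and 5 settings. The rises were 1 without the second 48 h array, and the falls 1 without the first or second 48 h or the second 96 h array. Of 16 smooth muscle and SRF target genes 5 rose (31.2%) and 3 fell (18.8%), with *Csrp2* (0.91) and *Actg2* (0.91) higher, *Tagln* at least 1.73-fold higher and *Smtn* lower (-0.41). Housekeeping reference genes passed in 3 of 21 cases upward and 2 downward (1 when any array but the third at 96 h was left out), with *Gapdh* at 0.03 and *Actb* at -0.05, and 9 rose with an intensity trend in the variance. Of the wider marker lists, the summed linear signal of the 5 adipocyte list members measured went from between 885.1 and 996.4 to between 1784 and 2135, through *Lpl*, the lipoprotein lipase gene that muscle also makes (8.36, 8.40 and 8.51, then 10.48, 10.66 and 10.37, difference 2.08, adjusted p = 1.13e-07), while *Plin4* of the same list was 2.84-fold lower (detected on 2 arrays at 96 h). The bone and cartilage list went from between 544.8 and 593.3 to between 457.9 and 611.9, and the list of neurons and glia from between 1208 and 1595 to between 1247 and 1410. The leukocyte list went from between 137.8 and 148.4 to between 159.1 and 178.2, and the list of epithelium and endothelium from between 510.4 and 559.8 to between 423.5 and 441.4. Whether other cells had a part in any of these changes was not tested.

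**Figure D4:**
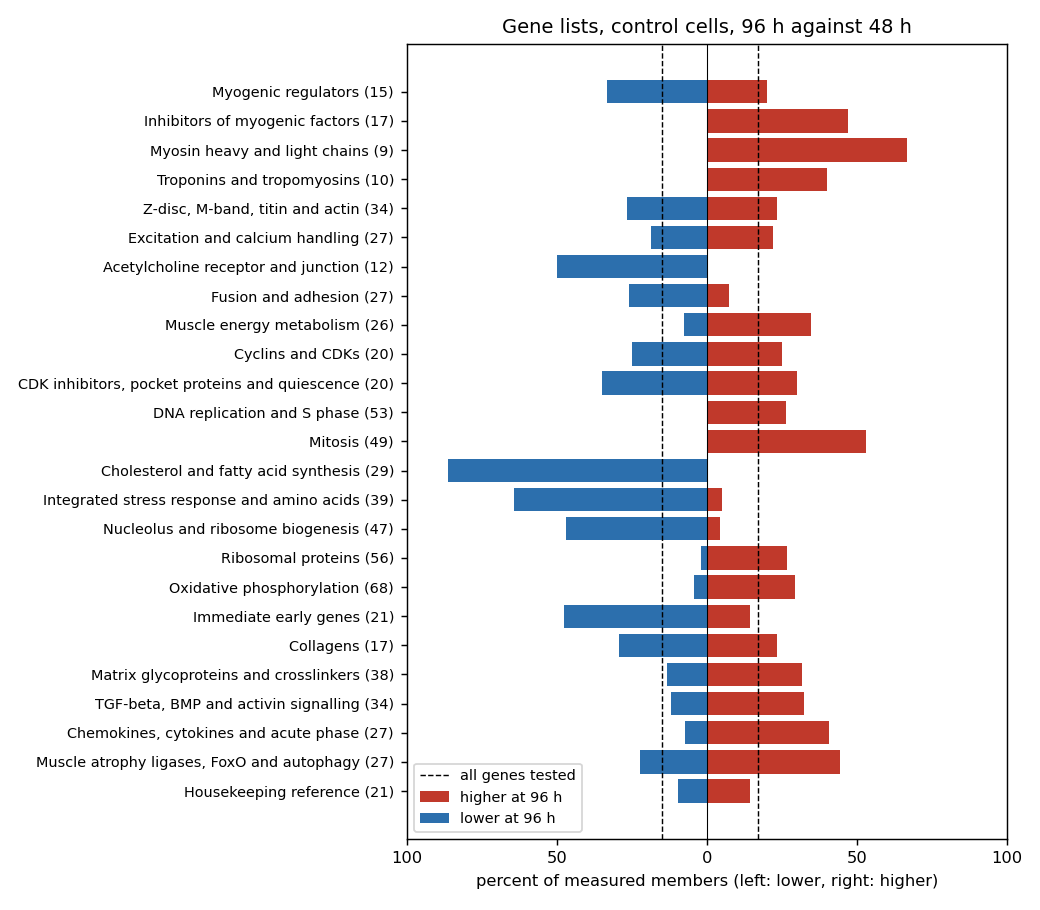
Percent of the measured members of 25 gene lists that passed the threshold, lower at 96 h to the left in blue and higher to the right in red, with the number measured in brackets. The dashed lines mark all 8858 genes (14.8% lower and 17.1% higher), and cholesterol and fatty acid synthesis reaches furthest, with 86.2% lower.

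A gene with several probes does not always give 1 answer. Of 2441 genes with more than 1 kept probe, 575 had at least 2 probes past the threshold, and in 34 of these they passed in opposite directions. In *Ap2b1*, an adaptor gene of endocytosis, the brightest probe rose by 0.70 and 3 dimmer probes fell by 0.44, 0.50 and 0.36. *Asph*, *Ccng1* and *Klf4* also had such probes.

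To see whether the changes were particular to control cells, they were set against the change with time in the *Zbed6*-silenced cells, which shares no array with them. Across 8858 genes the differences of the 2 arms correlated at r = 0.702 and rho = 0.552, where genes are not independent and all 12 arrays were normalized together. The fit also pooled the spread of each probe over all 12 arrays, so the calls of the 2 arms are not independent. Of the 2822 genes that passed in control cells, 2391 (84.7%) had the same sign in silenced cells. The share with the same sign was not counted over all genes. The genes that passed in both arms were 1293, and 32 of them had opposite signs. They made up 45.8% of the control calls, where 2423 of all 8858 genes passed in silenced cells. Of those 2423 they made up 53.4%, where 31.9% of all genes passed in control cells. The difference between the arms itself passed for 385 probes (2.94%) and 271 genes (3.06%). *Myl2* (4.86 in silenced cells), *Tcap* (3.97), *Myh1* (2.53), *Mb* (1.75), *Id3* (1.88), *Cyp51* (-1.68), *Cdkn1c* (-3.42) and *Igfbp3* (-2.47) changed in both arms, and the difference between the arms did not pass for them. For *Myl2* it was 0.30 (SE 0.349, adjusted p = 0.654) and for *Tcap* 0.44 (SE 0.198, adjusted p = 0.213).

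*Col18a1*, which encodes the precursor of endostatin, fell by 1.04 in control cells (13.19, 13.39 and 13.32, then 12.32, 12.19 and 12.27) and was at 0.03 in silenced cells (difference of the differences 1.07, adjusted p = 0.00186). *Atg9b* fell by 1.24 in control cells and was at 0.29 in silenced cells (1.53, adjusted p = 0.00638). *Hk1*, which encodes a hexokinase, fell by 0.38 in control cells and was at 0.82 in silenced cells (1.20, adjusted p = 0.0149). In the other direction, *Slc40a1*, the iron exporter gene, rose by 0.73 in control cells (7.93, 7.94 and 7.84, then 8.55, 8.64 and 8.71) and was at -0.71 in silenced cells (-1.44, adjusted p = 0.000249). *Klf6* (-0.44 in control and -1.68 in silenced cells) and *Nrep* (0.43 and -0.39) differed as well, by -1.23 and -0.82. The falls of *Hk1* and *Klf6* in control cells lost their calls at 6 and 2 settings. Of these 6 genes, *Hk1* (0.55), *Slc40a1* (-0.76), *Atg9b* (0.85) and *Nrep* (-0.55) had smaller differences between the arms in the authors' processed values, by 1.5 to 2.2 times, and *Klf6* was at -0.88 and *Col18a1* at 1.17 there. Each of the 6 passed there. The other 4 genes with the smallest p were not detected on any control array at 1 of the times, *Bsg*, *Tex14* and *Mc4r* at 96 h and *Rnase6* at 48 h, so the size of their difference between the arms was not measured. *Bsg* was at least 1.31-fold lower at 96 h in control cells. The fitted differences of these 4 genes passed, but in the authors' processed values they came to -0.24 for *Tex14*, -0.17 for *Mc4r*, 0.09 for *Bsg* and 0.16 for *Rnase6*, and those of *Bsg* and *Rnase6* did not pass there. *Mef2c* rose less in silenced cells (1.52, against 2.36, adjusted p = 0.0422), and so did *Hey1* (0.37, against 0.99, adjusted p = 0.048). The number of probes with such a difference, 385, ran from 135 to 954 over the other processing settings and was 66 without the second control array at 96 h.

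**Figure D5:**
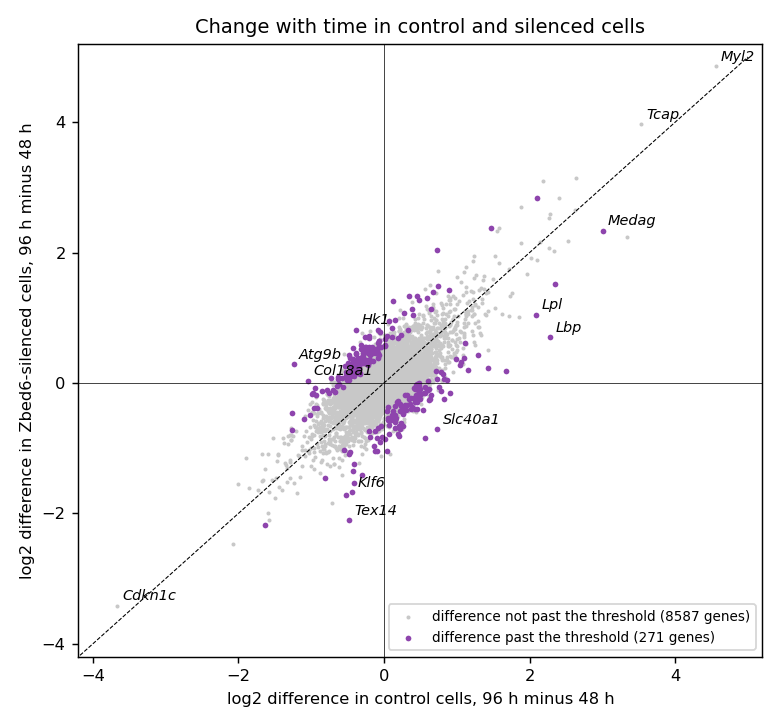
Each point is a gene, with its log2 difference between 96 h and 48 h in control cells on the x axis and in *Zbed6*-silenced cells on the y axis. The dashed line marks equal change, the 271 purple genes differ between the arms past the threshold, and *Myl2*, *Tcap* and *Cdkn1c* lie near the line.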

How the data were processed

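Expression was measured on Illumina MouseRef-8 arrays, 1 per culture, in 12 cultures of C2C12 cells. The authors deposited raw probe intensity with a detection p-value for each array, the latter in steps of 1 in 798, and a table of log2 values that they had processed with lumi per the labels. No source used here says how these log2 values were transformed. Each column correlated best with its own array, and medians were 7.845 to 7.851. These log2 values served only as an alternative. All columns used were mapped to samples (0 were not).

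Raw intensity was background corrected with the detection p-values (normexp, offset 16), taken to log2 and quantile normalized over 12 arrays with limma 3.58.1 in R 4.3.3. Probes with detection p under 0.05 on at least 3 arrays were kept (13095 of 25697). A linear model with a mean for each of the 4 groups of 3 arrays and moderated variance gave the difference between 96 h and 48 h in control cells and its difference from that in silenced cells, with Benjamini-Hochberg adjustment over all kept probes. Precision is set by 3 arrays a group. Of all probes 23978 had 1 gene symbol, 0 several and 1719 none. The brightest kept probe stood for a gene. A gene not detected on any array of a time was given a lower bound, the mean of the bright arrays over the higher, on each dim array, of its own value and the lowest signal of a detected probe.

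The genes compared, the members and the lists were chosen with earlier results of these data known. Named genes were the 12 largest rises and falls, the 6 largest bounds in each direction, up to 6 members of each list by p, every measured regulator and inhibitor, and the 5 smallest p of the difference between arms in each direction; further names were chosen after their values were seen. The script was tested on simulated data. Promoter windows are RefSeq's for GRCm38.p6. No source used here gives slide or scan, and no batch was fitted. The alternatives were the authors' values, no background correction, offset 50, median scaling, no filter, detection p under 0.01 on all 3 arrays of a control group, the 6 control arrays alone, an intensity trend, the replicate number as a block, the mean over probes and leaving out each array.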

Additional observations from a re-analysis of the deposited data

Results flagged for a closer look

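In 28 of 279 named genes the change with time differed between silenced and control cells, at an adjusted p under 0.05 (limma, interaction term). The adjustment was over all probes. Among all 8858 genes 271 (3.06%) passed. The named genes, chosen by the rule for named genes or by their p within a list, held 10 picked by the p of this same difference. Most others were picked by their change in control cells, which is part of this difference. The count of 28 is thus no result about these genes, and the differences were not explained further. For 7 of the 28, *Bsg*, *Casq1*, *Kng1*, *Mc4r*, *Rnase6*, *Tex14* and *Tgfbi*, no control array at 1 of the times detected the gene, so the fitted value given for them depends on the background and is not a measured size. Values are the change with time in silenced cells minus that in control cells, on the log2 scale. The difference was above 0 for *Atg9b* (1.532), *Rnase6* (1.314), *Hk1* (1.201), *Col18a1* (1.072), *Bsg* (0.8693), *Tgfbi* (0.8014), *Casq1* (0.7249), *Adamts7* (0.7224), *Col1a1* (0.7209), *Heatr1* (0.6011) and the p53 target *Plk3* (0.5318). It was below 0 for *Tex14* (-1.62), *Lbp* (-1.579), *Slc40a1* (-1.437), *Klf6* (-1.233), *Kng1* (-1.204), *Mc4r* (-1.195), *Lpl* (-1.038), *Cxcl12* (-0.9556), *Car9*, of the hypoxia list (-0.9155), *Mef2c* (-0.8377), *Nrep* (-0.8214), *Gas2* (-0.8194), *Ccng2* (-0.7523), *Medag* (-0.6654), *Hey1* (-0.6227), *Slc24a3* (-0.5396) and *Ndufb3* (-0.4548). Groups of 3 arrays are too small to test single arrays as outliers.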

How the results depend on the processing

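The counts of genes and probes that changed with time stayed within 1.5 times at every setting, except those of falls with median scaling, which gave 1330 probes (against 2129) and 776 genes lower at 96 h and moved the median difference of all genes to 0.0872; the cause was not tested. Leaving out 1 control array gave 3059 to 3764 probes and 2056 to 2497 genes. The replicate numbers did not pair the cultures, with correlations of the deviations of same-numbered arrays of -0.107, -0.0972 and -0.0166, and a fit with the replicate block gave 3999 probes and 2657 genes, of which 2578 were among the 2822. The number of probes whose change differed between the arms, 385, was 778 in the authors' values, 820 with no background correction, 773 with offset 50, 688 with the stricter filter, 954 with an intensity trend, 135 with median scaling, 225 with the replicate block, and 66 (without the second control array at 96 h) to 370 with 1 array left out. Of 261 named genes that passed, 219 did so at every setting and 41 lost the call at least once, most often *Ctnnb1*, at 11 settings. With the mean over probes *Ybx3* was at -0.3745 and *Asph* at -0.1937, both turned in sign. Of the 2822 genes that passed in the main fit 19 turned in sign there, whether or not they passed with the mean over probes. Quantile normalization limits differences among the brightest probes, and detection limits those of the dimmest. Slides were not known and could not enter a fit.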
